A study of Homo sapiens with 6 samples.

Results

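FOXO1, FOXO3, FBXO32, TXNIP, ARRDC3, ARRDC4, IRS2, PIK3IP1, INPP4B and BCL6 comprise FOXO factors, listed FOXO targets, arrestins and inhibitors of PI3K-AKT signaling. Their mRNA levels were compared between control and SCAMP1-depleted gastric cancer cells. These 10 protein-coding genes, of 58735 genes in the deposited table, were chosen by name with their values in this same contrast already known. Their differences between the groups are therefore given as a description and were not tested as a finding. NCI-N87, an established gastric carcinoma cell line, had been infected for 24 h with shNC or shScamp1 lentivirus in the presence of polybrene (1 μl/ml), and stable populations were selected with puromycin (2 μg/ml). Total RNA was harvested at about 80% confluence from 3 biological replicates of control cells (shNC) and 3 of cells carrying an shRNA against SCAMP1 (shScamp1), and the 6 libraries were sequenced. Both groups shared the vector infection and the puromycin selection. The paper describes its control as the empty vector and names a single shRNA for the sequenced cells. Effects of carrying this hairpin therefore cannot be told apart from those of lower SCAMP1. Whether the replicates of a group came from separate infections was not stated, so the spread between them may be technical.

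FOXO factors are forkhead transcription factors that activate genes of cell cycle arrest, stress resistance, atrophy and insulin sensitivity. When insulin or IGF-1 activates PI3K and AKT, AKT phosphorylates FOXO proteins, and 14-3-3 proteins then hold them in the cytoplasm. In fasted tissues the same factors raise the transcription of IRS2, which feeds back on insulin signaling, and of FBXO32. TXNIP, ARRDC3 and ARRDC4 are alpha-arrestins, adaptors that connect membrane proteins with ubiquitin ligases, and TXNIP and ARRDC4 are also classical targets of the glucose-sensing factor MondoA.

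Expression was deposited as FPKM, a read count divided by gene length and scaled for the size of the library, so that levels of genes of unequal length can be set side by side. The libraries held between 14311769 and 15988700 reads on genes. SCAMP1, the targeted gene, was at 12.1 ± 0.562 FPKM (SD, n = 3) in shNC and 1.69 ± 0.311 FPKM (SD, n = 3) in shScamp1 cells, a log2 fold change of -2.78. The shScamp1 replicate 2 library stood apart from the others: 9.21% of its reads were mitochondrial against 6.09% to 6.78% elsewhere, and its reads differed from those of the other shScamp1 replicates with a chi-square per gene of 34.3 and 43.9, against 3.09 between those replicates and 1.97 to 2.58 among the shNC libraries. Of 11 gastric and epithelial markers 9 averaged 0.5 FPKM or more, and TFF1 and TFF3 had no read. Their summed level was 5685 to 5973 FPKM in shNC and 9614 to 10592 FPKM in shScamp1 libraries. KRT8 (means of 1534 and 3002 FPKM), KRT19 (1688 and 2844 FPKM) and KRT18 (875 and 2000 FPKM) weighed most in this rise. EPCAM did not rise, at 153 and 148 FPKM. None of 6 immune markers and none of 5 endothelial markers averaged 0.5 FPKM over the 6 libraries (CD14 came closest, at 0.499), nor did 5 of 6 fibroblast markers, of which COL1A2, DCN and LUM had no read. The endothelial markers summed to 0.201 to 0.316 FPKM in shNC and 0.566 to 0.719 FPKM in shScamp1 libraries. VWF, at means of 0.172 and 0.444 FPKM, weighed most in this sum. The part of these shifts in the results was not tested. In bulk RNA, fewer cells that express a gene and less of its RNA per cell cannot be told apart.

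Promoter sequences are shown for the genes whose window holds a FOXO core or an E-box in the exact letters given below. Windows from 250 bases before to 50 bases after each RefSeq start (GRCh38.p14) were found for 9 of the 10 genes, the exception being FBXO32, and gave 21 windows, some of which overlap. Both strands were searched for the FOXO core GTAAACA, which reads TGTTTAC on the other strand, and for the palindromic E-box CACGTG. The FOXO core was in 3 of the 21 windows (14.3%), 1 each of TXNIP, ARRDC3 and PIK3IP1, and in 3.42% of all 35116 promoter windows. The E-box was in 2 of the 21 windows (9.52%), 1 each of ARRDC4 and INPP4B, and in 7.26% of all windows. In the sequences below, written 5′ to 3′ along the gene, capitals mark the motif.
TXNIP, chr1:145996530-145996829, reverse strand: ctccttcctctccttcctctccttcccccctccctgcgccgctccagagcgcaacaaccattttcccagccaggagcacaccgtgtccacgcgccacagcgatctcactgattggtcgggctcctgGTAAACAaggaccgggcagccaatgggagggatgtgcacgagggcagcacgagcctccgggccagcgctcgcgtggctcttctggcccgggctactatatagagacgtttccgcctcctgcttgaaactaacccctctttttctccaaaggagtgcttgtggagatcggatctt
ARRDC3, chr5:91380048-91380347, reverse strand: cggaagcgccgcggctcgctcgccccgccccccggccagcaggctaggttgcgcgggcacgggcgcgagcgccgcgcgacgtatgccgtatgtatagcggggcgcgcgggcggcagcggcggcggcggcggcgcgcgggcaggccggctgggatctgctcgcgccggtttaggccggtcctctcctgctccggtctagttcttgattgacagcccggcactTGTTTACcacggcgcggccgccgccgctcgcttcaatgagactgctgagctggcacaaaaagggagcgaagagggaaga
PIK3IP1, chr22:31292439-31292738, reverse strand: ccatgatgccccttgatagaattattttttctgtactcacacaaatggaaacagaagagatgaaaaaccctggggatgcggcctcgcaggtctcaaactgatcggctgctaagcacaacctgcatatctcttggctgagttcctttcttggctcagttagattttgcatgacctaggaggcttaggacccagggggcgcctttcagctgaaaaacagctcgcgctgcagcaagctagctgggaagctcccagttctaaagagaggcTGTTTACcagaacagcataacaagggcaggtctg
ARRDC4, chr15:97960453-97960752, forward strand: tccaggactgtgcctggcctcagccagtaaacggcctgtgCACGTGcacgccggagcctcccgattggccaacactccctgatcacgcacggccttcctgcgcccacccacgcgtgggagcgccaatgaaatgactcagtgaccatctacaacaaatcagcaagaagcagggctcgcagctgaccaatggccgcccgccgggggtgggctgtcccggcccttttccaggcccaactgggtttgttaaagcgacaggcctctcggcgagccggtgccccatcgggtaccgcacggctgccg
INPP4B, chr4:142405397-142405696, reverse strand: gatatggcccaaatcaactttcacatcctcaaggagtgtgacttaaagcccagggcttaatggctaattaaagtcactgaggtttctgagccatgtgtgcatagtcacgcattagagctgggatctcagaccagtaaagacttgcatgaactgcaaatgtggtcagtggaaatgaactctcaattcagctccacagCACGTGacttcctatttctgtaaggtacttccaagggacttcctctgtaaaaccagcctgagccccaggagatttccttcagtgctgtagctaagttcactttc
Counted from the RefSeq start of the window shown, the first motif base lay at position -124 in TXNIP, -29 in ARRDC3, 17 in PIK3IP1, -210 in ARRDC4 and -54 in INPP4B. In all of these genes this start lies inside the annotated gene. The windows of ARRDC3, PIK3IP1 and INPP4B nearest the upstream end of the gene held neither motif. Their lowest coordinates are 91383268, 31292485 and 142846252, and that of PIK3IP1 overlaps the window shown. A match is a description of the letters and not a mapped binding site. Variant and paired forms of the motifs were not searched for. A window without a match, as those of TXNIP for the E-box, may therefore hold such a form. The windows of FOXO1, FOXO3, IRS2 and BCL6 held neither motif, which bears only on these stretches and these exact letters. GC content of the 21 windows ranged from 30.0% to 78.3%, around the median of 58.7% of all windows.

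FOXO1 overlapped between the groups and FOXO3 was somewhat higher in shScamp1 cells, while FBXO32, TXNIP, PIK3IP1, INPP4B, ARRDC3, BCL6 and ARRDC4 stood 1.86-fold to 4.13-fold higher in shScamp1 cells with no overlap between the groups. Among those of the 10 genes that were tested, FBXO32 showed the widest difference and FOXO1 the narrowest. IRS2 mRNA was close to undetected in all 6 libraries. The plot of FPKM by library shows each value.

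**Figure D1:**
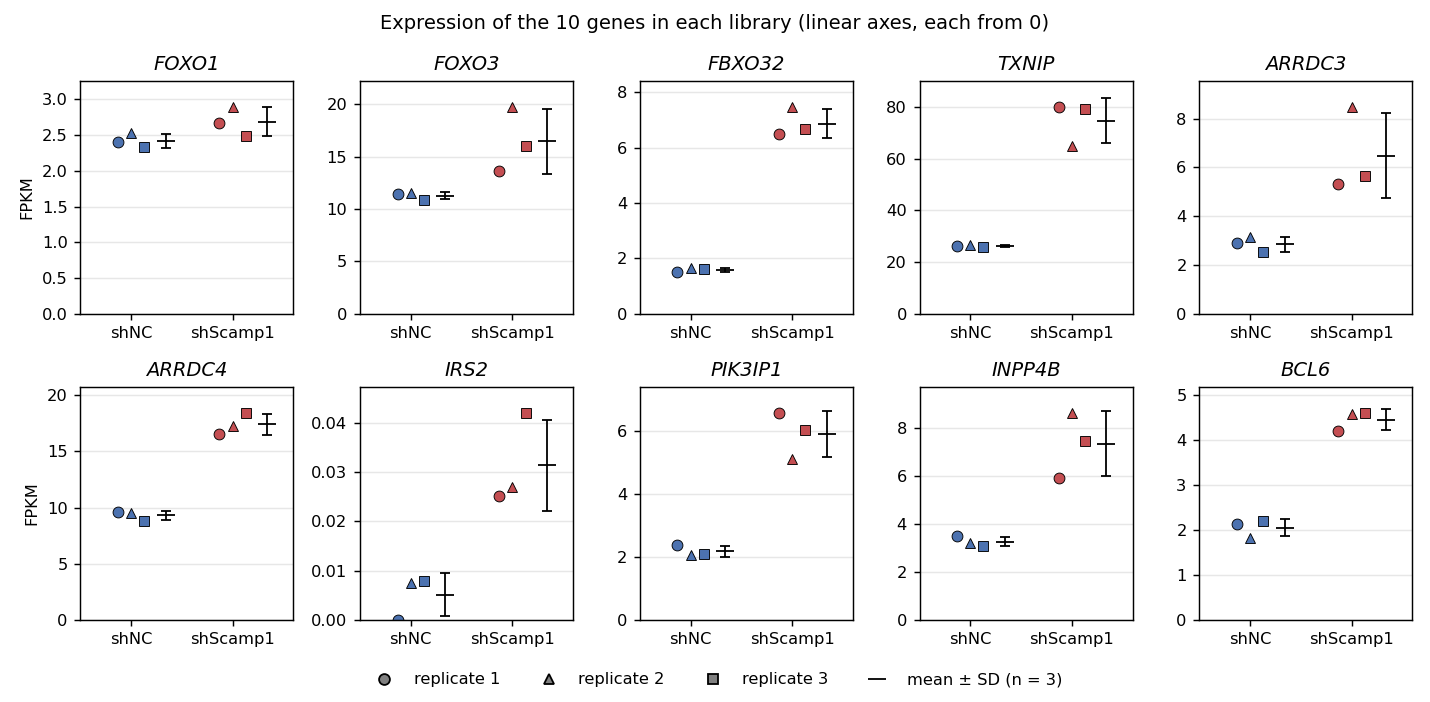
FPKM (y axis, linear from 0) of the 10 genes in each shNC (blue) and shScamp1 (red) library, with marker shapes for replicates 1 to 3 and a bar for the mean ± SD (n = 3). The groups overlap for FOXO1 and lie apart for the other 9 genes. Every shScamp1 library is above every shNC library for 20.4% of all tested genes. IRS2, which was not tested, stays below 0.05 FPKM with 0 to 5 reads.

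FOXO1 (ENSG00000150907, chromosome 13 from 40469953 to 40666597, reverse strand), a main FOXO factor of liver and muscle, was at 2.40, 2.52 and 2.34 FPKM in the shNC libraries and at 2.67, 2.90 and 2.49 FPKM in the shScamp1 libraries. The lowest shScamp1 value lay below the highest shNC value, so that the groups overlapped. Its log2 fold change, on the scale of log2(FPKM + 0.1) that is used throughout and that understates the change of low genes, was 0.14 (standard error 0.09), and 0.09 without shScamp1 replicate 2.

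FOXO3 (ENSG00000118689, chromosome 6 from 108559835 to 108684774, forward strand), the factor best known for inducing atrophy genes, was at 11.5, 11.5 and 10.9 FPKM in shNC and at 13.6, 19.8 and 16.0 FPKM in shScamp1 libraries. All 3 shScamp1 values were above the shNC values but spread widely, with replicate 2 the highest. The mean was 11.3 ± 0.335 FPKM (SD, n = 3) in shNC and 16.5 ± 3.10 FPKM (SD, n = 3) in shScamp1 cells, a log2 fold change of 0.52 (standard error 0.14) that was 0.39 without shScamp1 replicate 2. The processed pseudogene FOXO3B on chromosome 17 is 99.1% identical to a FOXO3 transcript over 1928 bases, so the division of reads between the copies, and with it the FOXO3 level, is uncertain. FOXO3B had between 48 and 72 reads per library and went the other way, from 2.09, 2.18 and 2.42 FPKM in shNC to 1.81, 1.89 and 1.70 FPKM in shScamp1 libraries. Of the exonic bases of FOXO1 4.32% are shared on the same strand with LINC00598, which had 6 to 14 reads. The pseudogene FOXO1B, 85.7% identical to FOXO1 over 1550 aligned bases, had no read.

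FBXO32 (ENSG00000156804, chromosome 8 from 123497889 to 123541206, reverse strand) encodes atrogin-1, the F-box subunit of a ubiquitin ligase that FOXO factors induce in wasting muscle. It was at 1.51, 1.63 and 1.61 FPKM in shNC and at 6.47, 7.47 and 6.65 FPKM in shScamp1 libraries, from 177 to 756 reads. Every shScamp1 value was far above every shNC value and the replicates of each group lay close together. The means were 1.58 ± 0.0651 and 6.86 ± 0.530 FPKM (SD, n = 3 each). The log2 fold change was 2.05 (standard error 0.09), or 4.13-fold on this scale, and 1.99 without shScamp1 replicate 2.

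BCL6 (ENSG00000113916, chromosome 3 from 187721377 to 187745727, reverse strand) encodes a zinc finger repressor that FOXO factors induce in B cells. It was at 2.13, 1.83 and 2.19 FPKM in shNC and at 4.20, 4.58 and 4.60 FPKM in shScamp1 libraries. The groups did not overlap and shScamp1 replicate 2 lay within its group. The log2 fold change was 1.09 (standard error 0.10), and 1.07 without that replicate. Of its exonic bases 8.24% are overlapped on the opposite strand by AC072022.1 and AC072022.2, which had at most 15 reads per library. Whether the counting used strand was not stated.

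TXNIP (ENSG00000265972, chromosome 1 from 145992435 to 145996600, reverse strand) encodes the thioredoxin-interacting protein, which binds thioredoxin and lowers glucose uptake. It was at 26.3, 26.5 and 25.7 FPKM in shNC and at 80.0, 64.8 and 79.3 FPKM in shScamp1 libraries, the highest level of the 10 genes in both groups. The shNC values nearly coincided, and shScamp1 replicate 2 was the lowest of its group. The means were 26.2 ± 0.365 and 74.7 ± 8.60 FPKM (SD, n = 3 each). The log2 fold change was 1.50 (standard error 0.10), or 2.84-fold on this scale, and 1.60 without shScamp1 replicate 2.

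ARRDC4 (ENSG00000140450, chromosome 15 from 97960698 to 97973838, forward strand), a paralog of TXNIP that also restrains glucose uptake, was at 9.56, 9.54 and 8.82 FPKM in shNC and at 16.6, 17.2 and 18.4 FPKM in shScamp1 libraries. The groups lay well apart with little spread in each. The means of 9.30 ± 0.417 and 17.4 ± 0.938 FPKM (SD, n = 3 each) differed by 0.90 on the log2 scale (standard error 0.07), which was also 0.90 without shScamp1 replicate 2.

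ARRDC3 (ENSG00000113369, chromosome 5 from 91368724 to 91383359, reverse strand), an alpha-arrestin known for directing beta-adrenergic receptors and integrin beta 4 to degradation, was at 2.89, 3.14 and 2.53 FPKM in shNC and at 5.30, 8.48 and 5.67 FPKM in shScamp1 libraries. The groups did not overlap, and shScamp1 replicate 2 stood above the other shScamp1 libraries by 0.62 on the log2 scale. The log2 fold change was 1.13 (standard error 0.19), the largest error among those of the 10 genes that were tested, and 0.92 without that library. The antisense gene ARRDC3-AS1, which covers 2.94% of the exonic bases, had 11 to 18 reads.

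PIK3IP1 (ENSG00000100100, chromosome 22 from 31281593 to 31292534, reverse strand) encodes a transmembrane protein that binds the p110 catalytic subunit of PI3K and inhibits it. It was at 2.37, 2.07 and 2.08 FPKM in shNC and at 6.57, 5.11 and 6.04 FPKM in shScamp1 libraries. No values overlapped between the groups, and shScamp1 replicate 2 was the lowest of its group. The means were 2.17 ± 0.173 and 5.90 ± 0.739 FPKM (SD, n = 3 each). The log2 fold change was 1.40 (standard error 0.12), and 1.50 without shScamp1 replicate 2.

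INPP4B (ENSG00000109452, chromosome 4 from 142023160 to 142847432, reverse strand) encodes a phosphatase that removes a phosphate from the lipid products of PI3K and so counters AKT activation. It was at 3.49, 3.22 and 3.10 FPKM in shNC and at 5.94, 8.65 and 7.48 FPKM in shScamp1 libraries. The shScamp1 values were all higher and were spread more widely than those of shNC. The log2 fold change was 1.13 (standard error 0.14), and 1.01 without shScamp1 replicate 2.

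IRS2 (ENSG00000185950, chromosome 13 from 109752698 to 109786568, reverse strand) encodes the insulin receptor substrate that FOXO factors induce in fasted liver. Its FPKM was 0, 0.00737 and 0.00795 in shNC and 0.0252, 0.0269 and 0.0420 in shScamp1 libraries, which corresponds to 0, 1 and 1 against 3, 3 and 5 reads. All shScamp1 values were above the shNC values, but at 3 reads a library detects between 0.0221 and 0.0269 FPKM and the level was at or near this limit throughout. Summed over the libraries, 11 shScamp1 reads against 2 shNC reads gave a ratio of 6.15 after scaling, with an exact 95% interval from 1.34 to 57.1 that covers counting error only. IRS2 was below the mean of 0.5 FPKM required for testing. Its antisense gene AL162497.1 had no read. For PIK3IP1, the antisense gene PIK3IP1-AS1 covers 0.946% of the exonic bases and had 2 to 11 reads, and for INPP4B, AC139720.1 covers 0.805% and had at most 2 reads.

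Across the 10 genes, 9 passed this filter and 7 of them were higher in shScamp1 cells at an adjusted p under 0.05 (limma with Benjamini-Hochberg adjustment over 15556 genes), where 8.82% of all tested genes were higher. None was lower, against 5.17% of all tested genes. With a log2 fold change above 1 as well, 6 were counted (FBXO32, TXNIP, PIK3IP1, INPP4B, ARRDC3 and BCL6), beside 2.42% of all tested genes. Every shScamp1 library was above every shNC library for 8 of the 9, and for 20.4% of all tested genes. As the genes were selected on these values, nothing is read from the counts. FOXO1 and FOXO3 did not pass. FOXO3 lay close to the threshold. It passed when shScamp1 replicate 1 or replicate 2 was left out, with a filter at a mean of 2 FPKM, among protein-coding genes alone and with voom on the recovered reads, which gave 8 genes each time, and ARRDC3 did not pass when any 1 shNC replicate was left out, which gave 6. The median log2 fold change was 1.13 over the 9 tested genes and 1.11 over all 10, beside -0.02 over all tested genes. It was 1.26 without shScamp1 replicate 1 and 1.01 without shScamp1 replicate 2.

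**Figure D2:**
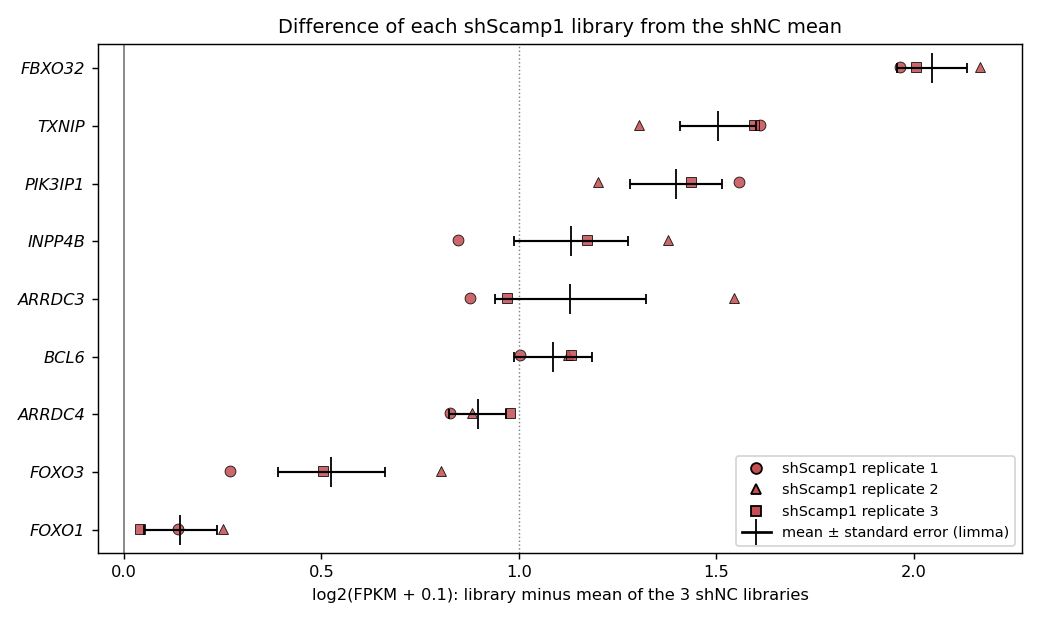
Difference of each shScamp1 library (marker shapes for replicates 1 to 3) from the mean of the 3 shNC libraries in log2(FPKM + 0.1), with the mean difference and its limma standard error (black), for the 9 genes above the filter. FBXO32 lies highest at 2.05 and FOXO1 lowest at 0.14, and replicate 2 (triangle) is the highest library for 5 genes and the lowest for TXNIP and PIK3IP1.

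The deviating library did not move the genes in 1 direction. Compared with the mean of the other shScamp1 replicates on the log2 scale, replicate 2 was higher by 0.62 for ARRDC3, 0.42 for FOXO3, 0.37 for INPP4B, 0.18 for FBXO32 and 0.16 for FOXO1. It was the lowest of its group for TXNIP and PIK3IP1, at -0.30 each. The plot of differences by library shows these departures beside the standard errors.

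The order of the levels also differed between the groups. In shNC cells TXNIP was highest, followed by FOXO3, ARRDC4, INPP4B, ARRDC3, FOXO1, PIK3IP1, BCL6, FBXO32 and IRS2. The ranges of INPP4B and ARRDC3 overlapped, as did those of FOXO1 and PIK3IP1 and those of PIK3IP1 and BCL6. In shScamp1 cells the order was TXNIP, ARRDC4, FOXO3, INPP4B, FBXO32, ARRDC3, PIK3IP1, BCL6, FOXO1 and IRS2. Here ARRDC4 and FOXO3 overlapped, and each neighboring pair from INPP4B to PIK3IP1 overlapped. FBXO32 went from rank 9 to rank 5, and FOXO1 from rank 6 to rank 9.

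Profiles over the 6 libraries were compared with the median profile of those of the 10 genes that were tested. The most similar protein-coding genes were sought among 6573 candidates that averaged 5 FPKM or more. The measure was the root mean square difference of centered log2 values. GPR15 was closest (0.0586), going from 26.2 ± 0.970 to 56.3 ± 2.33 FPKM (SD, n = 3 each). SERPINA1 (0.0685), FLRT3 (0.0751), TGFA (0.0864) and PARP9 (0.0874) followed, with SERPINA1 going from 9.39 ± 0.286 to 20.0 ± 1.13 FPKM (SD, n = 3 each). SERPINA1 encodes alpha-1-antitrypsin and TGFA a ligand of the EGF receptor.

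The other genes of the pathway showed a mixed picture. Among 25 tested FOXO target genes 7 rose, IRS1 and IGFBP2 fell, IGFBP3 rose, and the core PI3K and AKT genes mostly did not pass the test. The pathway lists were written with earlier results of these data known, so their counts are given as a description. In all, 163 further genes were placed in 13 lists, and 134 of them were tested. Of these, 18 rose and 7 fell at an adjusted p under 0.05 by limma, beside 8.82% and 5.17% of all genes, and their median log2 fold change was 0.07. The plot of the pathway lists gives every tested gene.

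**Figure D3:**
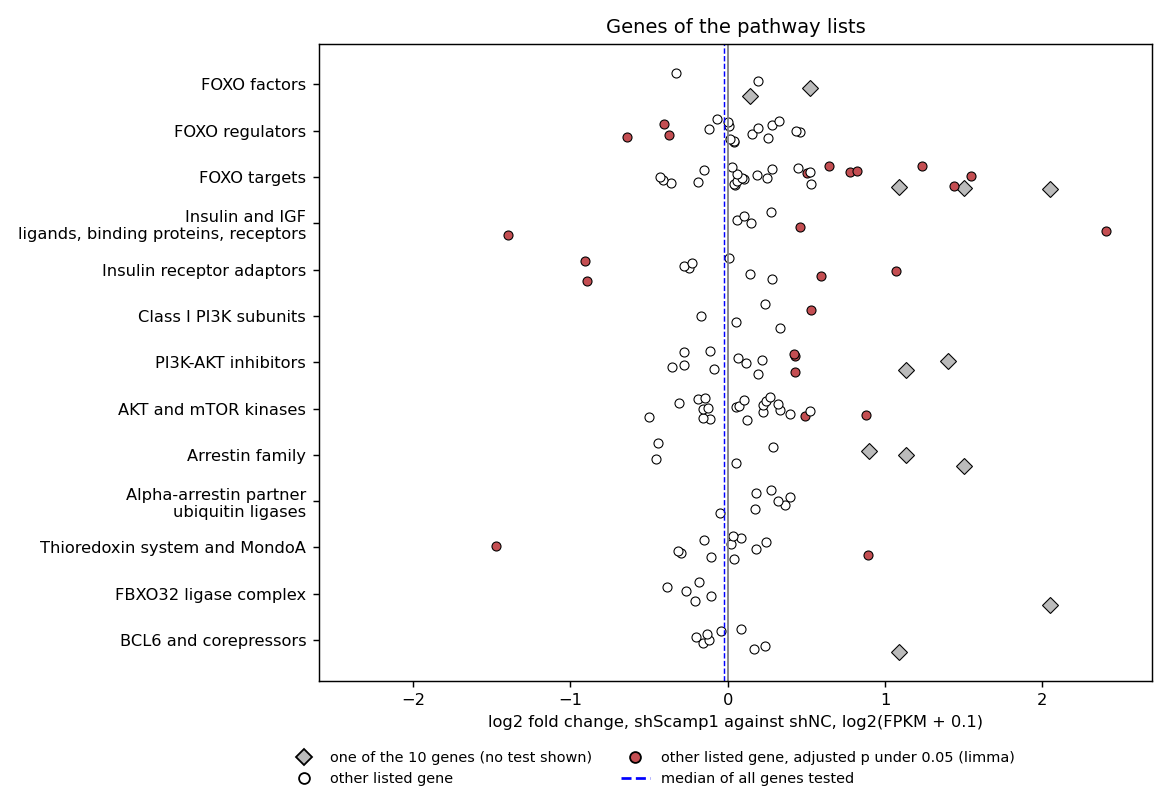
Log2 fold change (x axis, shScamp1 against shNC) of the tested genes in 13 pathway lists, with circles for the other listed genes (filled where the adjusted p is under 0.05), grey diamonds for the 10 genes and a dashed line at the median of all tested genes (-0.02). Most circles lie within 1 log2 unit of 0, while IGFBP3 is the highest at 2.40, followed by TNFSF10 at 1.55 and CCNG2 at 1.44, and MLXIPL at -1.47 and IGFBP2 at -1.40 are the lowest.

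Of the FOXO family, FOXO4 was at 3.74 ± 0.311 and 4.28 ± 0.128 FPKM (log2 fold change 0.19, adjusted p = 0.195 by limma) and FOXO6 at 2.85 ± 0.590 and 2.22 ± 0.196 FPKM (-0.33, adjusted p = 0.222 by limma; SD, n = 3 each). Neither passed. Among 17 regulators of FOXO activity, none rose and 3 fell. SKP2, a ubiquitin ligase subunit that marks FOXO1 for degradation, had a log2 fold change of -0.64 (adjusted p = 0.00397 by limma). YWHAH, a 14-3-3 protein, was at -0.40 (adjusted p = 0.0175), and STK4, a kinase that phosphorylates FOXO factors under stress, at -0.38 (adjusted p = 0.0266). The median of the list was 0.04. The call of SKP2 held whichever library was left out. YWHAH passed in 2 and STK4 in 1 of the 6 fits that left out 1 library, with an adjusted p of up to 0.0845 and 0.116 by limma. Both passed as lower without shScamp1 replicate 2. The main fit called 1372 of all 15556 tested genes higher and 805 lower, against 2280 and 2050 without shScamp1 replicate 2. In that fit 5 further genes passed, all of them higher, so that 5 regulators rose and 3 fell. They were the acetyltransferases CREBBP and EP300 (0.28 and 0.23, adjusted p = 0.0267 and 0.0374 by limma) and the 14-3-3 genes YWHAB, YWHAG and YWHAZ (0.15, 0.18 and 0.25, adjusted p = 0.0347, 0.0102 and 0.00460 by limma).

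Of 32 further FOXO target genes, 25 were tested, 7 rose and none fell, with a median log2 fold change of 0.19. TNFSF10, which encodes the death ligand TRAIL, was at 2.05, 2.45 and 2.35 FPKM in shNC and at 7.25, 6.46 and 6.89 FPKM in shScamp1 libraries, which is 1.55 higher on the log2 scale (adjusted p = 0.000547 by limma). CCNG2, an atypical cyclin of cell cycle arrest, was at 1.63, 1.52 and 1.54 against 5.09, 4.18 and 4.01 FPKM (1.44, adjusted p = 0.00105 by limma). GABARAPL1, an autophagosome protein, was at 5.17, 5.64 and 5.23 against 14.9, 10.3 and 13.4 FPKM (1.24, adjusted p = 0.00326 by limma). None of these groups overlapped. CITED2, a transcriptional coregulator, rose by 0.78, KLHL24, a ubiquitin ligase adaptor, by 0.82, SELENOP, the selenium carrier of plasma, by 0.64 and ERBB3, a receptor of the EGF receptor family, by 0.50 on the log2 scale (adjusted p = 0.00587, 0.00919, 0.0418 and 0.0318 by limma).

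Several cell cycle and apoptosis genes of this list did not pass. CDKN1B, the inhibitor p27, was at 12.4 ± 0.932 and 18.2 ± 3.34 FPKM (log2 fold change 0.53, adjusted p = 0.0638 by limma), and CDKN1A, the inhibitor p21, at 0.05 (adjusted p = 0.819). BCL2L11, which encodes the death factor BIM, was at 0.09 and GADD45A, of the DNA damage response, at -0.36 (adjusted p = 0.413 and 0.486 by limma). The count of 7 depended on single libraries. It was 5 without shNC replicate 1, 4 without shNC replicate 2 or 3, 5 without shScamp1 replicate 3, and 11 without shScamp1 replicate 2, when 10 genes rose, now with ATG14, CDKN1B and ULK1, and PRDX3 fell (adjusted p = 0.0135 by limma). TNFSF10, CCNG2, GABARAPL1 and CITED2 passed with any 1 library left out. Of the 6 fits that left out 1 library, ERBB3 passed in 2, KLHL24 in 4 and SELENOP in 1. Their adjusted p reached 0.122, 0.0510 and 0.141 by limma.

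**Figure D4:**
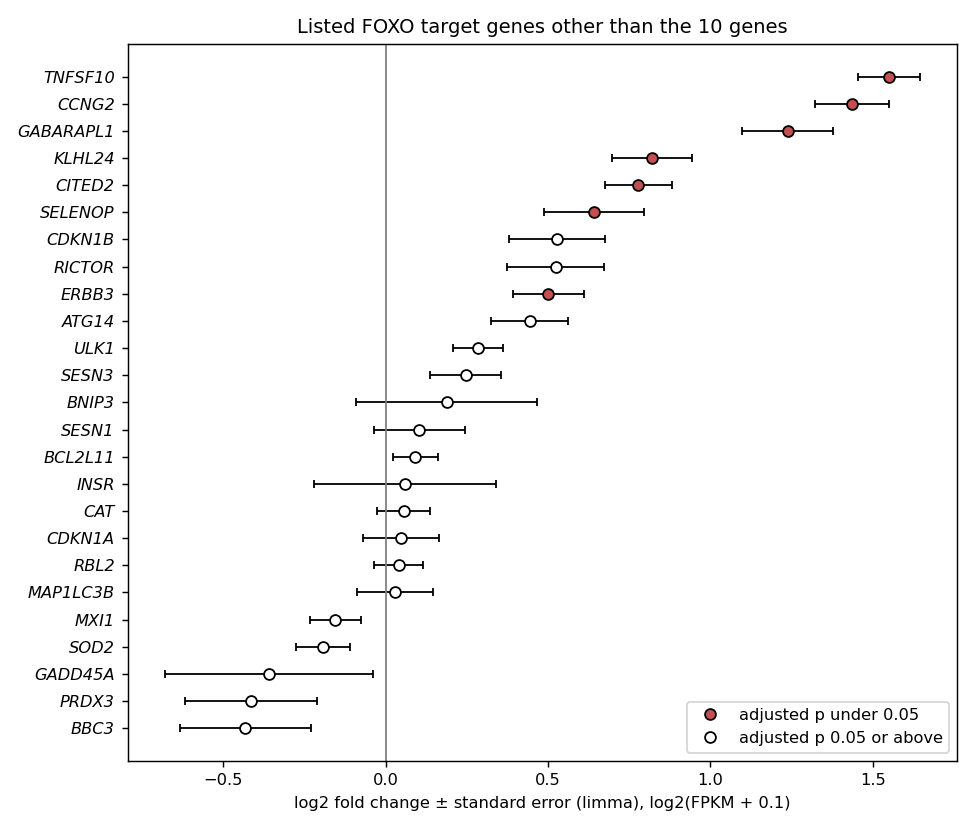
Log2 fold change ± limma standard error (x axis) of the 25 tested FOXO target genes outside the 10 genes, ordered by size and filled where the adjusted p is under 0.05. The 7 filled genes lie between 0.50 (ERBB3) and 1.55 (TNFSF10), and BBC3 is the lowest at -0.43.

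Upstream in the pathway, 7 of 14 ligands, binding proteins and receptors were tested. IGFBP3, the main IGF carrier of serum, was at 1.46, 1.30 and 1.33 FPKM in shNC and at 8.42, 6.70 and 7.89 FPKM in shScamp1 libraries, a log2 fold change of 2.40 (adjusted p = 0.000203 by limma). IGFBP2, another carrier, fell from 13.6, 12.0 and 14.5 to 5.97, 3.63 and 5.68 FPKM (-1.40, adjusted p = 0.00745 by limma). IGFBP4 rose by 0.46 (adjusted p = 0.0298 by limma), but passed in only 2 of the 6 fits that left out 1 library (adjusted p up to 0.121). IGFBP6 rose as well without shScamp1 replicate 2 (0.30, adjusted p = 0.0130 by limma). The receptors did not pass: INSR, the insulin receptor, was at 2.14, 2.15 and 1.96 against 1.53, 3.45 and 1.93 FPKM (log2 fold change 0.06, adjusted p = 0.906 by limma), and IGF1R at 3.56 ± 0.151 against 3.87 ± 0.773 FPKM (0.10, adjusted p = 0.670 by limma). The ligand INS had no read, and IGF1 had at most 2 reads and IGF2 at most 6.

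Of 11 receptor adaptors other than IRS2, 10 were tested, 2 rose and 2 fell, with a median of -0.11. IRS1, the partner of IRS2 in passing the insulin signal to PI3K, was at 19.3, 19.4 and 20.9 FPKM in shNC and at 9.46, 12.6 and 10.1 FPKM in shScamp1 libraries. Its groups did not overlap, and it fell by 0.90 ± 0.12 on the log2 scale (standard error), with an adjusted p of 0.00568 by limma. GRB7, an SH2 adaptor of receptor kinases, rose from 246.9, 250.6 and 251.4 to 568.8, 452.2 and 562.4 FPKM (1.07, adjusted p = 0.00227 by limma). GAB1 rose by 0.59 (adjusted p = 0.0322) and SH2B2 fell by 0.91 (adjusted p = 0.0436 by limma). GAB1 passed in 2 and SH2B2 in 1 of the 6 fits that left out 1 library, with an adjusted p of up to 0.124 and 0.144. Without shScamp1 replicate 2, SHC1 and GRB2 rose as well (0.37 and 0.13, adjusted p = 0.00226 and 0.0270 by limma), which gave 4 genes that rose and 2 that fell. IRS4 had at most 1 read. IRS1, at 19.9 ± 0.897 FPKM (SD, n = 3) in shNC and 10.7 ± 1.65 FPKM (SD, n = 3) in shScamp1 cells, was the IRS gene above the filter in these cells.

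Of 10 PI3K subunit genes, 5 were tested. PIK3R3, a regulatory subunit, rose by 0.53 on the log2 scale (adjusted p = 0.0146 by limma). It passed in 2 of the 6 fits that left out 1 library (adjusted p up to 0.0757). The catalytic subunit genes did not pass: PIK3CA was at 3.97 ± 0.205 and 5.10 ± 1.21 FPKM (SD, n = 3 each; log2 fold change 0.33, adjusted p = 0.227 by limma), and PIK3CB had a log2 fold change of 0.05 (adjusted p = 0.804). The regulatory gene PIK3R1 was at -0.17 (adjusted p = 0.568), but passed as lower without shScamp1 replicate 2 (-0.38, adjusted p = 0.0222 by limma), and PIK3R4, which the list holds although it serves class III PI3K, at 0.24 (adjusted p = 0.186). PIK3CD had 12 to 41 reads, PIK3CG, PIK3R5 and PIK3R6 had none, and PIK3R2 had 1 to 5 reads with 87.2% of its exonic bases shared with AC007192.1 on the same strand, so its level is uncertain.

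Of the other inhibitors of the pathway, 12 of 14 were tested, 3 rose and none fell. TRIB1 and TRIB2, pseudokinases of the tribbles family, and INPP4A, the paralog of INPP4B, had log2 fold changes of 0.43, 0.42 and 0.43 (adjusted p = 0.0149, 0.0303 and 0.0429 by limma). None of the 3 passed when any 1 shNC replicate was left out, with an adjusted p of up to 0.0795, 0.122 and 0.152. Without shScamp1 replicate 2 all 3 passed as higher, and TRIB3 and INPPL1 passed as lower (-0.31 and -0.17, adjusted p = 0.0419 and 0.0296 by limma).

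All 22 AKT and mTOR pathway kinases and partners were tested, 2 rose and none fell. SGK2 (0.88, adjusted p = 0.0142) and SGK1 (0.49, adjusted p = 0.0368 by limma), kinases related to AKT, were those that rose. SGK2 passed in 3 and SGK1 in 1 of the 6 fits that left out 1 library, with an adjusted p of up to 0.0686 and 0.139. In the fit without shScamp1 replicate 2, 3 genes of the list rose and 2 fell. AKT1 was at 6.98 ± 0.585 and 6.44 ± 0.321 FPKM, and AKT2 at 14.5 ± 0.553 and 13.0 ± 0.162 FPKM (SD, n = 3 each). Their log2 fold changes were -0.11 and -0.16 (adjusted p = 0.421 and 0.138 by limma).

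Apart from TXNIP, ARRDC3 and ARRDC4, which were chosen with their values known, 4 arrestins were tested and none passed. ARRDC1 was at 18.3 ± 0.798 and 19.4 ± 4.03 FPKM and ARRDC2 at 8.63 ± 0.602 and 6.35 ± 1.33 FPKM (SD, n = 3 each), log2 fold changes of 0.06 and -0.46 (adjusted p = 0.842 and 0.119 by limma). The beta-arrestins ARRB1 and ARRB2, which silence G protein-coupled receptors, were at 0.29 and -0.44 (adjusted p = 0.0847 and 0.0557 by limma). ARRDC5 had no read. Without shScamp1 replicate 2 all 4 passed, ARRDC1 and ARRB1 as higher (adjusted p = 0.0240 and 0.0293 by limma) and ARRDC2 and ARRB2 as lower (adjusted p = 0.0370 and 0.0362 by limma). None of 7 tested ubiquitin ligases of the NEDD4 family, the partners of alpha-arrestins, passed, and without that library WWP1 and WWP2 passed as higher (adjusted p = 0.02005 and 0.0237 by limma).

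In the thioredoxin and MondoA list, 12 of 14 genes were tested, with 1 higher and 1 lower. TXNRD1, thioredoxin reductase, rose from 35.6, 34.9 and 33.9 to 65.3, 64.3 and 64.7 FPKM (log2 fold change 0.89, adjusted p = 0.000601 by limma). MLXIPL, which encodes ChREBP, the paralog of MondoA, fell from 2.71, 3.19 and 3.02 to 1.17, 0.804 and 1.08 FPKM (-1.47, adjusted p = 0.00281 by limma). The groups of neither gene overlapped. MondoA itself (MLXIP), its partner MLX and thioredoxin (TXN) had log2 fold changes of 0.18, 0.02 and 0.04 (adjusted p = 0.312, 0.905 and 0.888 by limma). Without shScamp1 replicate 2 the list had 5 calls in place of 2, adding TXN (0.20, adjusted p = 0.0168 by limma) and the glucose transporter SLC2A1 (0.27, adjusted p = 0.00782 by limma) as higher and TXNRD3 (-0.40, adjusted p = 0.0320 by limma) as lower.

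None of 5 tested genes of the FBXO32 ligase complex or its substrates passed, with CUL1, its scaffold, at a log2 fold change of -0.21 (adjusted p = 0.0744 by limma). None of 8 tested corepressors and relatives of BCL6 passed, with BCOR at -0.16 (adjusted p = 0.338 by limma). Without shScamp1 replicate 2, 1 gene of the first list (CUL1) and 2 of the second (BCOR and TBL1X) passed as lower. Over all lists, 11 of the 25 calls held in each of the 6 fits that left out 1 library, and these were TNFSF10, CCNG2, GABARAPL1, CITED2, GRB7, IGFBP3 and TXNRD1, which rose, and SKP2, IRS1, IGFBP2 and MLXIPL, which fell. The number of listed genes passing was 12, 11 and 12 without shNC replicates 1, 2 and 3, and 14 without shScamp1 replicate 3. It was 55 without shScamp1 replicate 2, of which 36 rose and 19 fell. In that fit 2280 of all 15556 tested genes rose and 2050 fell.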

How the data were processed

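RNA-seq of 6 NCI-N87 libraries was analysed. The authors deposited FPKM per gene, and the submitters' processing notes name HISAT2 2.0.5, featureCounts 1.5.0-p3, DESeq2 1.20.0 and hg38. All 58735 genes had GENCODE 29 coordinates. FPKM times gene length was a whole multiple of 1 step per library for 100% of values (tolerance 0.01 reads), which gave the reads, and the steps already included median-of-ratios size factors. Groups followed the sample titles. Genes that averaged 0.5 FPKM or more (99.5% of reads) were tested on log2(FPKM + 0.1) with limma 3.58.1 in R 4.3.3 (eBayes with trend, Benjamini-Hochberg adjustment over 15556 genes). FPKM are not counts, so no count model was the main test. The script was tested on simulated reads. The 10 genes and the lists were chosen with earlier results of these data known. Named genes are the 10 genes, SCAMP1, listed genes that passed, all FOXO, arrestin, PI3K subunit, AKT, INSR, IGF1R and IRS genes, overlapping or copied genes and the 5 nearest profiles. A few of these named genes, all from the pathway lists, are not reported here. Other listed genes were named after their values were seen. For 2 listed symbols with a second row, the row with more reads was used. Pseudogene identity was measured with BLAST 2.17.0, and summaries and figures used Python 3.11.15, pandas 2.3.3, numpy 2.4.6, scipy 1.17.1 and matplotlib 3.10.9. A search of protein sequences was not run. Alternatives covered pseudocount, filter, scaling, trend, biotype, voom, the replicate number as a block, a fold threshold and leaving out each library.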

Additional observations from a re-analysis of the deposited data

How the results depend on the processing

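The count of 7 passing among the 10 genes, of which 9 were tested, stayed between 6 and 8 under 17 alternatives. No log2 fold change of these genes changed sign. As they were chosen with this contrast known, nothing is read from this stability. Their median log2 fold change of 1.13 was 0.94 with a pseudocount of 1 and lay between 1.01 and 1.26 with 1 library left out. Of the listed genes, 25 passed, 12 with the replicate number as a block, 7 with an absolute log2 fold change above 1, and 11 to 55 with 1 library left out. Some listed genes that did not pass changed sign without shScamp1 replicate 2, as INSR (0.06 to -0.26) and IGF1R (0.10 to -0.05). Of all genes, 2177 passed, 958 with the replicate block, 492 with the fold threshold, and 808 to 4330 with 1 library left out, the highest without shScamp1 replicate 2. The cause of these changes in the counts was not tested. Same-numbered libraries deviated together with correlations of -0.035, 0.032 and 0.067, so the numbers were not taken to pair the samples. The block left 7 of the 10 genes passing. The fitted log2 fold changes of FBXO32, PIK3IP1 and BCL6 were 1.60, 1.12 and 0.84 with a pseudocount of 1. Depth limited IRS2, at 0 to 5 reads.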
